A study of Homo sapiens with 9 samples.

Results

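Expression of 40 genes that cells use to pass from G2 through mitosis was followed in U937 cells, a myeloid line established from a human histiocytic lymphoma. The list was drawn up by function, with earlier results of these data known. All 40 genes had at least 1 probe on the arrays, and they held 63 probes in all. A probe was kept where its signal exceeded the negative control beads at a detection p under 0.01 on at least 3 of the 9 arrays, which left 60 member probes of 14230 kept probes. The probe with the highest mean stood for each gene, so that 40 of the 8611 genes tested were members, and each chosen member probe was detected on all 9 arrays.

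The arrays compared cells that carried a lentiviral short hairpin RNA (shRNA) against DEK, a chromatin protein, with cells that carried what the labels call the corresponding empty vector. The hairpins were in H1 lentiviral vectors. The 3 groups were labelled shEMPTY, shDEK14 and shDEK17 and held 3 libraries each, numbered 1 to 3, and all came from 1 parental line. Transduced cells had been sorted on GFP at 48 h and grown for 4 days, in the controls too. Whether the libraries of a group were transduced separately is not in the labels, and the p-values cover only the variation of these samples, which may be technical.

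The labels did not match the level of DEK. Its bead intensity was 2510, 293.9 and 2580 in the libraries labelled shEMPTY 1, 2 and 3. For shDEK14 the intensities were 2360, 359.4 and 2826, and for shDEK17 they were 431.6, 1890 and 532.0. Intensities thus lay under 1000 in shEMPTY 2, shDEK14 2, shDEK17 1 and shDEK17 3, and above 1000 in shEMPTY 1, shEMPTY 3, shDEK14 1, shDEK14 3 and shDEK17 2. Every direction below refers to the labels of libraries, which DEK contradicts in shEMPTY 2, shDEK14 1, shDEK14 3 and shDEK17 2. Libraries are given by label with the DEK intensity beside them and were not regrouped by it, since DEK is itself measured here. The library labelled shEMPTY 2 also stood apart in interferon-induced genes, with ISG15, a ubiquitin-like antiviral modifier, at 13.46 on the log2 scale against 7.80 to 8.62 in the other 8 libraries. IFIT1, another interferon-induced antiviral gene, was at 12.21 there against 5.75 to 6.84. Mean probe intensity ran from 362.2 to 457.2 and the number of detected probes from 12729 to 14152, with the lowest intensity and the most probes in shEMPTY 2. Of 14 markers chosen for a monocytic line, 11 were tested genes, among them SPI1, CEBPA and MPO, while CD14 and ITGAX were not kept and CD33 had no named probe. Of the markers of other lineages, NKG7 was tested among 7 for T and NK cells and CD79A and CD79B among 5 for B cells. None of 4 erythroid and 6 epithelial or fibroblast markers was tested.

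In background, a cell enters mitosis when cyclin B binds the kinase CDK1 and CDC25 phosphatases remove the phosphates that hold CDK1 inactive. Polo-like and Aurora kinases and motor proteins of the kinesin family then build the spindle, and a checkpoint at the kinetochores holds back the anaphase-promoting complex until every chromosome is attached. That complex, an E3 ubiquitin ligase, marks securin and cyclin B for destruction, which frees separase to cut cohesin. Most of these genes are transcribed late in the cell cycle, when the MuvB core with B-MYB and FOXM1 occupies a promoter element called the cell cycle genes homology region (CHR), often near CCAAT boxes bound by NF-Y. In bulk RNA, fewer cells in G2 and mitosis and less RNA of these genes per cell cannot be told apart.

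This promoter architecture was read from the RefSeq windows of 250 bases before to 50 after each start (GRCh38.p14), which were found for 33 of the 40 members. FOXM1, AURKA, TPX2, BIRC5, BUB3, TTK and UBE2C were not matched. A CHR was searched as TTTGAA or TTCGAA and a CCAAT box as CCAAT, on both strands, and a gene counted if any of its windows held the letters. The CHR letters were found in 25 of 33 members (75.8%), against 16.4% of the 7106 tested genes with a window and 19.5% of all 27305 genes. CCAAT was found in 27 members (81.8%), against 44.4% of tested genes and 39.7% of all genes. Both stood in 21 members (63.6%), against 7.16% of tested genes and 7.85% of all genes. Counted per window, which keeps the length the same, 28 of 43 member windows held a CHR (65.1%) against 16.4% of all 35116. All 6 genes for the spindle and cytokinesis and all 6 matched checkpoint and kinetochore genes held a CHR, as did 2 of 5 kinesins, KIF11 and KIF23. A match is a description of the letters and does not show that a factor binds there.

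The stretches below show how closely these elements sit to the start in 5 members whose expression is described further on. Each is the 120 bases that end 1 base before the RefSeq start on the gene's strand, and capitals mark CHR and CCAAT letters on either strand (TTCAAA and ATTGG are the reverse complements).
CDC25B: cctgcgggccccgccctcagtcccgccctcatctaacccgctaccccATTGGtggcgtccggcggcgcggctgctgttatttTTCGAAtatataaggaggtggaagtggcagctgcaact
MKI67: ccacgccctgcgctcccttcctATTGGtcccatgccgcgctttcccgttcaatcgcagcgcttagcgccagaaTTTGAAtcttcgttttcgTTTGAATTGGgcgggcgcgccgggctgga
ESPL1: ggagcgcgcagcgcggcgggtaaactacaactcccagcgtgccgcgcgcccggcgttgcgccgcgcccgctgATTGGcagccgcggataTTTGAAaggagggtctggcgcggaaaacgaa
ANLN: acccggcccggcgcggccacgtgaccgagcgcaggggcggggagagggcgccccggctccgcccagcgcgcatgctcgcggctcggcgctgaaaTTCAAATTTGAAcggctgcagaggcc
CDC25C: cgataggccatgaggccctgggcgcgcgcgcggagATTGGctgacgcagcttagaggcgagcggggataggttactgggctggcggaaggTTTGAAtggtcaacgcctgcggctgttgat
The CDC25B stretch lies at chr20:3796190-3796309 on the plus strand and comes from the only 1 of its 4 windows with a CHR, which begins 38 bases before the start. In MKI67 (chr10:128126424-128126543, minus strand) the CHR letters begin 47 and 29 bases before the start, and the nearer match overlaps a reversed CCAAT. ESPL1 (chr12:53268179-53268298, plus strand) has a CHR 31 bases before the start and a reversed CCAAT 48 bases before it. ANLN (chr7:36389742-36389861, plus strand) has a pair of abutting CHR matches at 26 and 20 bases and no CCAAT in the window. CDC25C (chr5:138331805-138331924, minus strand), in which CHR control is a textbook case, has its match 30 bases before the start of this 1 of its 4 windows.

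To see whether the members followed the labels, the libraries labelled with an shRNA were set against those labelled shEMPTY. For the average of both hairpins, 29 of 40 members lay above and 11 below, while 48.1% of all genes lay above. The member median log2 fold change was 0.16, against -0.01 over all genes, and members ranged from -0.30 to 0.46. No member passed the threshold of 0.05 in limma's adjusted p, and neither did any other gene (0% of 8611). Adjusted p ran from 0.937 to 0.995 in the members. At an unadjusted p under 0.05, limma had 2 members higher (CDC25B and MKI67, against 2.69% of all genes) and 0 lower (2.54%). The study's kind of t-test, combined over hairpins, had 7 members under 0.05 (6.53% of all genes) and 0 after adjustment. Both hairpin tests share the shEMPTY libraries and the combination ignores sign, so its p-values tend to be too small and give no direction. Without the library labelled shEMPTY 2, the member median was 0.035 and 26 members lay above.

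**Figure D1:**
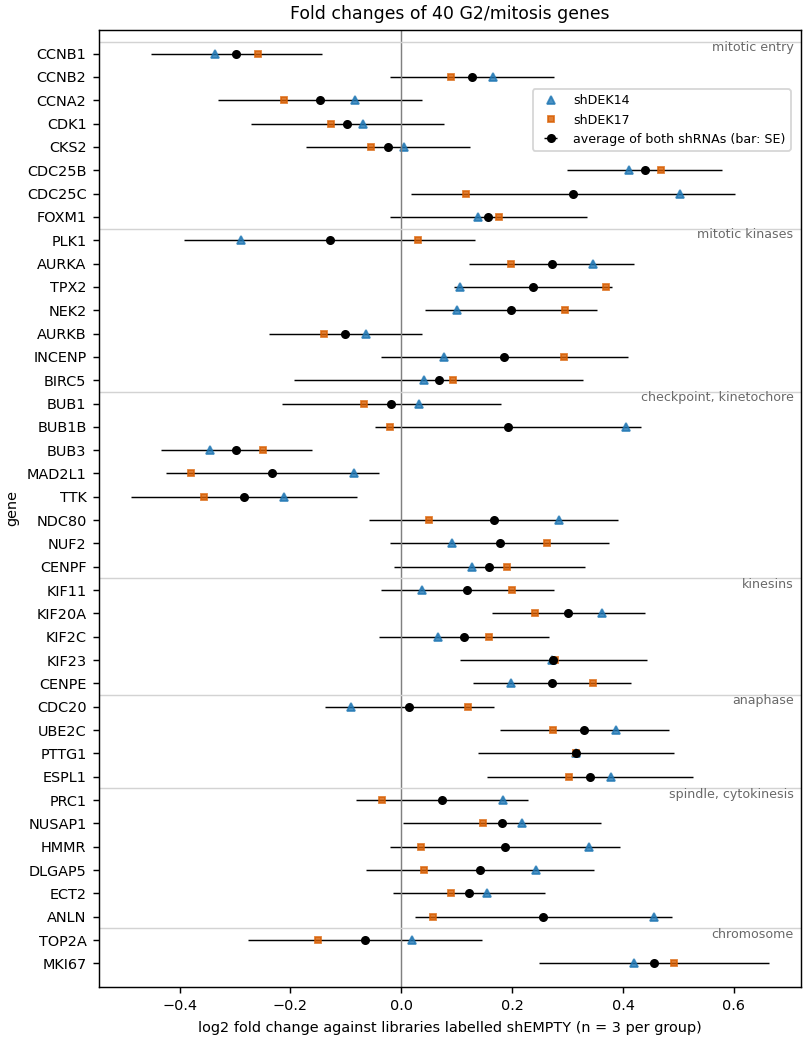
Log2 fold change of each of the 40 members (rows, grouped by role) against the 3 libraries labelled shEMPTY; triangles stand for shDEK14, squares for shDEK17 and circles for the average, whose bar is 1 SE from limma. Most circles lie right of 0, with all 5 kinesins, all 4 anaphase genes and all 6 spindle and cytokinesis genes there with all 9 libraries in the fit, and none passed the adjusted threshold.

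The values of each hairpin are given side by side, since both comparisons share the same control libraries. For shDEK14, 31 members lay above (49.4% of all genes) with a median of 0.13, and for shDEK17, 28 lay above (46.7%) with a median of 0.10. No gene passed in either (0% of 8611, lowest limma adjusted p of 0.954 and 0.999). Unadjusted, 3 members were higher and 1 lower for shDEK14 (2.15% and 2.38% of all genes), and 2 were higher and 0 lower for shDEK17 (2.11% and 1.68%). The methods' t-test had 6 and 5 members under 0.05 before adjustment (5.28% and 3.82% of all genes) and 0 after. Without shEMPTY 2 the medians were 0.081 and 0.014.

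The genes of mitotic entry did not share a direction. Of 8, 4 lay above and 4 below for the average, with a median of 0.05. CDC25B, a phosphatase that activates CDK1, had the lowest p of all 40 members. It read 9.09, 8.83 and 8.79 (log2 intensity, replicates 1, 2 and 3 in this and later sentences) in the libraries labelled shEMPTY. The shDEK14 libraries read 9.29, 9.40 and 9.26 and the shDEK17 libraries 9.49, 9.36 and 9.26. All 6 libraries labelled with an shRNA thus lay above all 3 labelled shEMPTY, whatever their DEK intensity. Its average log2 fold change was 0.44 ± 0.14 (SE; limma p of 0.0088, adjusted p of 0.937). The hairpins gave 0.41 ± 0.16 for shDEK14 (limma adjusted p of 0.954) and 0.47 ± 0.16 for shDEK17 (adjusted p of 0.999). CCNB1, the cyclin that CDC25B works on together with CDK1, went the other way. It read 10.24, 10.45 and 10.50 in the shEMPTY libraries, 10.27, 9.91 and 10.00 in the shDEK14 libraries and 10.18, 9.92 and 10.32 in the shDEK17 libraries. The groups overlapped through shEMPTY 1, shDEK14 1 and shDEK17 3, and the average was -0.30 ± 0.15 (limma adjusted p of 0.951). CCNB2, its paralog, had 0.13, and CCNA2, CDK1 and CKS2, a CDK-binding subunit, had -0.15, -0.10 and -0.02. FOXM1, a transcription factor for this gene class, had 0.16. Without shEMPTY 2, CCNB2 had 0.039, FOXM1 0.049, CDC25C 0.062 and CDK1 -0.26, and CKS2 turned to 0.054. CDC25B and CCNB1 then had 0.40 and -0.27, and the median of the 8 was 0.044 with 5 above. CDC25C, the sister phosphatase, had the widest range of the 40 members over the 9 libraries by the chosen probes (1.85). Its 9 values were 7.41, 6.72 and 7.51, then 7.13, 7.46 and 8.56, then 7.28, 7.59 and 7.12 in the order of groups above. The value in shDEK14 3 was far above the rest and that in shEMPTY 2 below them. The other kept probes of the gene differed by -0.48 and -0.43 between shEMPTY 2 and the mean of shEMPTY 1 and 3. Neither stood far above the rest in shDEK14 3. The first of them was highest in shDEK17 2 (7.13), and the other read 6.78 in shDEK14 3 against 6.71 in shDEK17 1. That other probe was lowest in shDEK17 3 (5.49), with 6.06 in shEMPTY 2. The value far above the rest in shDEK14 3 was thus seen with the chosen probe only. That other probe still ran widely, from 5.49 to 6.78.

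Among the mitotic kinases and their partners, 5 of 7 lay above for the average, with a median of 0.19. TPX2, which targets and activates Aurora A on the spindle, read 9.92, 10.11 and 10.01 in the shEMPTY libraries, 10.11, 10.07 and 10.17 in the shDEK14 libraries and 10.28, 10.62 and 10.24 in the shDEK17 libraries. The shDEK17 libraries lay above all others, and the log2 fold change was 0.37 ± 0.16 for shDEK17 (limma adjusted p of 0.999) and 0.11 for shDEK14. AURKA itself had 0.27 for the average, with the 3 shDEK17 libraries (10.41, 10.56 and 10.55) just above the highest shEMPTY library (10.39). The other kept AURKA probe had 0.14 and overlapped, with 10.26 in shEMPTY 3 against 10.25 in shDEK17 1 and 10.16 in shDEK17 3. NEK2, a kinase of centrosome separation, had 0.20. PLK1, the polo-like kinase, spread mostly within groups. It read 7.94, 6.77 and 7.23 in the shEMPTY libraries, 7.28, 6.97 and 6.82 in the shDEK14 libraries and 6.82, 7.49 and 7.71 in the shDEK17 libraries. Its highest and its lowest value of the 9 were thus both in libraries labelled shEMPTY, and the average was -0.13. The chromosomal passenger complex, in which INCENP and survivin (BIRC5) anchor Aurora B, was split as well. INCENP had 0.19, BIRC5 0.07 and AURKB -0.10. BIRC5 was lowest in shDEK14 3 (7.65) and highest in shDEK17 3 (8.76), a gap within the libraries labelled with an shRNA that exceeded its difference between the labels. Without shEMPTY 2 the median of the 7 was 0.032 with 4 above, and INCENP turned to -0.10, while without shEMPTY 1 PLK1 turned to 0.18.

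The checkpoint and kinetochore genes were divided, 4 above and 4 below, with a median of 0.07. BUB3, a checkpoint protein that docks BUB1 and BUBR1 on the kinetochore, had the lowest p among the members below 0. It read 12.16, 11.90 and 11.88 in the shEMPTY libraries, 11.68, 11.69 and 11.54 in the shDEK14 libraries and 11.77, 11.70 and 11.73 in the shDEK17 libraries. The 3 groups did not overlap in any pair, with shEMPTY highest and shDEK14 lowest. BUB3 had -0.30 ± 0.14 for the average (limma p of 0.050, adjusted p of 0.937) and -0.35 ± 0.16 for shDEK14 (adjusted p of 0.954). The other 3 kept probes for BUB3 gave -0.11, -0.01 and 0.13, so the difference was seen with the chosen probe only. MAD2L1 and TTK, which build and launch the checkpoint signal, had -0.23 and -0.28. Within the shDEK17 group, MAD2L1 read 10.42, 10.86 and 10.48, and it was 10.44 in shDEK14 2 against 11.15 and 11.07 in shDEK14 1 and 3. In the shEMPTY libraries it read 11.03, 10.75 and 11.12. Its 4 lowest values were thus in shDEK17 1, shDEK14 2, shDEK17 3 and shEMPTY 2, where DEK was at 431.6, 359.4, 532.0 and 293.9, an order noticed after the values were seen and given without a test. The other kept MAD2L1 probe did not share this order, with 9.36 in shEMPTY 3 and 9.48 in shDEK14 1 against 9.50 in shDEK17 3. BUB1B (BUBR1) had 0.19, BUB1 -0.02, CENPF 0.16, and the microtubule-binding pair NDC80 and NUF2 0.17 and 0.18. None of these passed. Without shEMPTY 2, CENPF had 0.0073, NDC80 0.074 and NUF2 -0.087, and the median of the 8 was -0.15 with 3 above.

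Kinesins lay above 0 in 5 of 5 for the average, with a median of 0.27. KIF20A, a motor of the central spindle, read 9.77, 9.76 and 9.65 in the shEMPTY libraries, 10.02, 10.29 and 9.95 in the shDEK14 libraries and 9.91, 10.05 and 9.95 in the shDEK17 libraries. CENPE, the motor that carries chromosomes to the spindle equator, read 9.0, 8.91 and 8.83, then 9.16, 9.12 and 9.07, then 9.36, 9.01 and 9.41. Neither gene overlapped between the labels, although shDEK17 2 lay next to shEMPTY 1 for CENPE. The other kept CENPE probe did overlap, with 8.26 in shEMPTY 3 against 7.82 in shDEK14 3 and 7.99 in shDEK17 2. KIF20A had 0.30 ± 0.14 for the average (limma adjusted p of 0.937) and 0.36 ± 0.16 for shDEK14 (adjusted p of 0.954). CENPE had 0.27 ± 0.14 (adjusted p of 0.955) and 0.35 ± 0.17 for shDEK17 (adjusted p of 0.999). KIF23, a subunit of centralspindlin, had 0.27, KIF11, the motor that pushes spindle poles apart, 0.12, and the microtubule depolymerase KIF2C 0.11. Without shEMPTY 2, KIF20A and CENPE had 0.32 and 0.27, while KIF23 had 0.15 and KIF2C -0.03, and 3 of 5 lay above with a median of 0.15.

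Anaphase genes were likewise above 0 in 4 of 4, with a median of 0.32. UBE2C, the ubiquitin-conjugating enzyme of the anaphase-promoting complex, read 9.95, 9.94 and 9.87 in the shEMPTY libraries, 10.50, 10.20 and 10.21 in the shDEK14 libraries and 9.96, 10.44 and 10.18 in the shDEK17 libraries. The labels did not overlap, but shDEK17 1 lay next to shEMPTY 1. ESPL1 (separase) read 7.61, 6.96 and 7.25, then 7.93, 7.50 and 7.53, then 7.38, 7.83 and 7.53, with overlap through shEMPTY 1. The average was 0.33 ± 0.15 for UBE2C (limma adjusted p of 0.937) and 0.34 ± 0.19 for ESPL1 (adjusted p of 0.960). ESPL1 had 0.18 without shEMPTY 2 and 0.18 with the authors' scaled intensities. PTTG1 (securin) had 0.32, and CDC20, which activates the complex, 0.01 (-0.07 without shEMPTY 3).

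The 6 genes of the spindle and of cytokinesis were all above 0, with a median of 0.16 and a range from 0.07 for the microtubule bundler PRC1 to 0.26 for ANLN, the cortical scaffold anillin. Without shEMPTY 2 their median was 0.045, with PRC1 at 0.0067 and ANLN at 0.090, and without shEMPTY 1 the spindle protein DLGAP5 was at -0.0059. Of the remaining pair, MKI67, the proliferation antigen that coats mitotic chromosomes, read 6.0, 6.06 and 6.38 in the shEMPTY libraries, 6.76, 6.53 and 6.41 in the shDEK14 libraries and 6.09, 7.04 and 6.79 in the shDEK17 libraries. The library shDEK17 1 lay among the shEMPTY libraries, and the average was 0.46 ± 0.21 (limma p of 0.049, adjusted p of 0.937). It was 0.22 with no background correction and 0.19 with the authors' scaled intensities, and its probe lay at percentile 19.2 of the tested genes by mean level. TOP2A, the topoisomerase that untangles sister chromatids, had -0.07.

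**Figure D2:**
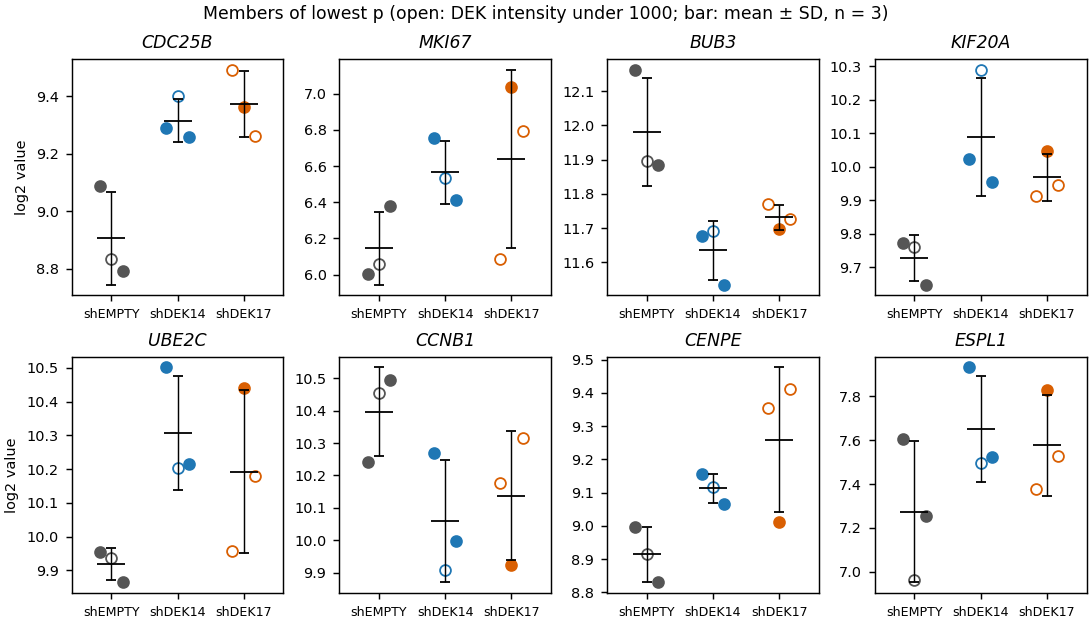
Normalized log2 value of the 8 members of lowest p (a panel each, with its own axis that does not start at 0) in the 9 libraries; open points have a DEK intensity under 1000, and the bars are the mean ± SD of 3 libraries. CDC25B, KIF20A, UBE2C and CENPE are higher, and BUB3 lower, in every library labelled with an shRNA than in every one labelled shEMPTY.

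By their chosen probes, 4 members were higher in each of the 6 libraries labelled with an shRNA than in each of the 3 labelled shEMPTY (CDC25B, KIF20A, CENPE and UBE2C), against 1.5% of all genes. BUB3 was the only 1 with complete separation the other way, against 1.59%. Without shEMPTY 2, TPX2 joined the first 4 (5 members, 3.87% of all genes) and BUB3 was again alone (4.42%). Within single hairpins, 6 members were separated upward and 1 downward for shDEK14 (5.49% and 5.56% of all genes), and 7 upward and 1 downward for shDEK17 (4.03% and 4.15%).

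To ask whether the hairpins differed, the libraries labelled shDEK14 were set against those labelled shDEK17. No gene passed (0% of 8611), with a lowest limma adjusted p of 0.999, and no member reached an unadjusted p under 0.05 (0.906% of all genes in each direction) in limma or in the methods' t-test (2.23%). The member median was 0.06 with 22 above (49.9% of all genes). TPX2 had -0.26 ± 0.16 and BUB1B 0.43 ± 0.28 (limma adjusted p of 0.999 for both), and ANLN had 0.40 ± 0.27 (adjusted p of 0.999). BUB1B, the checkpoint kinase BUBR1, read 9.35, 8.77 and 9.55 in the shDEK14 libraries, 8.99, 9.03 and 8.38 in the shDEK17 libraries and 8.38, 8.84 and 9.24 in the shEMPTY libraries. Its spread within each group was as wide as any difference between groups, and without shEMPTY 1 its average turned to -0.028. TPX2 and BUB3 were lower in every shDEK14 than in every shDEK17 library (2.53% of all genes), and no member was separated the other way (2.55%). Without shDEK14 3, the member median was -0.023.

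The members were next read library by library, as the deviation of each gene from its mean over the 9 libraries. The member median was 0.0094, -0.25 and 0.034 in the libraries labelled shEMPTY 1, 2 and 3. In the shDEK14 libraries it was 0.093, -0.077 and 0.16, and in the shDEK17 libraries 0.050, 0.055 and 0.018. Only shEMPTY 2 and shDEK14 2 had negative medians, with 35 and 26 of 40 members below the mean of the 9. Both had a DEK intensity under 1000, but so had shDEK17 1 and shDEK17 3, whose medians were above 0. The 5 libraries with DEK above 1000 had medians from 0.0094 to 0.16.

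**Figure D3:**
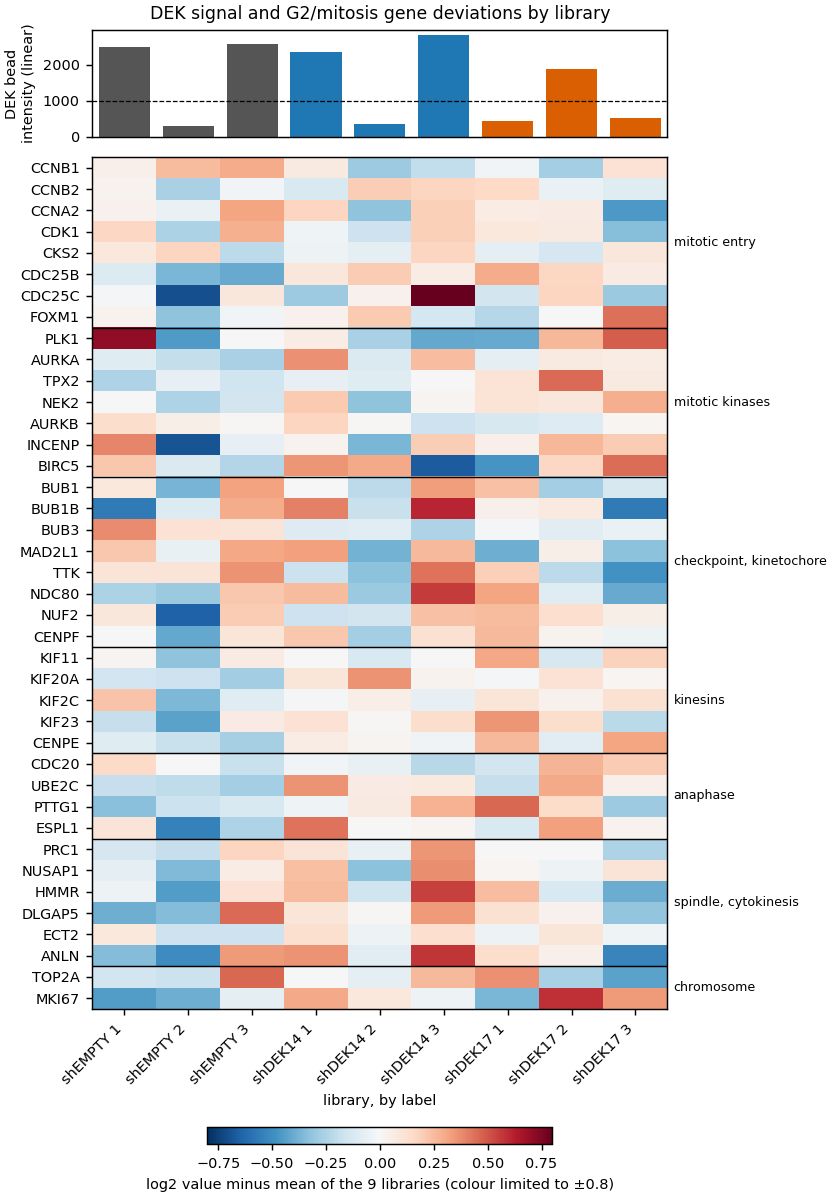
DEK bead intensity (bars, linear axis, dashed line at 1000, grey shEMPTY, blue shDEK14, orange shDEK17) over a map of the 40 members. Each cell is the log2 value minus the gene's mean over the 9 libraries, with colour limited at ±0.8. CDC25C in shDEK14 3 lies past the limits, and PLK1 in shEMPTY 1 and INCENP and CDC25C in shEMPTY 2 lie near them. The column of shEMPTY 2 is blue for 35 of 40 members, while the other 3 columns with a short bar are mixed.

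Kinase genes had a median deviation of 0.14, -0.19 and -0.15 in the shEMPTY libraries, 0.17, -0.12 and 0.0032 in the shDEK14 libraries and -0.079, 0.17 and 0.20 in the shDEK17 libraries. Checkpoint and kinetochore genes had 0.089, -0.20 and 0.25, then 0.11, -0.24 and 0.30, then 0.21, -0.028 and -0.23. The roles thus disagreed within a library, since shDEK17 3 was high in kinases and low in checkpoint genes. Kinesins had -0.098, -0.32 and -0.098, then 0.060, 0.020 and -0.0052, then 0.26, 0.035 and 0.12. Anaphase genes had -0.039, -0.19 and -0.21, then 0.17, 0.030 and 0.050, then -0.14, 0.29 and 0.032. In kinesins the 3 lowest medians were those of the shEMPTY libraries, and in anaphase genes shDEK17 1 lay between them. Of the 4 libraries with DEK under 1000, shEMPTY 2 was below the 9-library mean in all 4 roles, shDEK14 2 in 2 roles, and shDEK17 1 and shDEK17 3 in 2 and 1.

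The lowest and highest values of the members were not spread evenly. The lowest of the 9 values was in shEMPTY 1 for 5 members (8.9% of all genes), in shEMPTY 2 for 15 (11.5%), in shEMPTY 3 for 6 (9.89%), in shDEK14 1 for 0 (10.9%) and in shDEK14 2 for 2 (6.75%). It was in shDEK14 3 for 4 (12.7%), in shDEK17 1 for 1 (16%), in shDEK17 2 for 0 (10.6%) and in shDEK17 3 for 7 (12.8%). Highest values were in the shEMPTY libraries for 4, 1 and 5 members (13%, 10.5% and 8.97% of all genes), in the shDEK14 libraries for 5, 2 and 10 (9.48%, 8.72% and 11.6%) and in the shDEK17 libraries for 6, 3 and 4 (13.7%, 10.5% and 13.7%). Against these shares of all genes, shEMPTY 2 held more of the lowest and shDEK14 3 more of the highest values, an unevenness noticed after the values were seen. The library labelled shDEK14 3 was the highest of the 9 for PRC1, NUSAP1, HMMR, ECT2 and ANLN (5 of the 6 spindle and cytokinesis genes), BUB1, BUB1B, TTK and NDC80, and CDC25C. The same library was the lowest for AURKB, BIRC5, BUB3 and CDC20. The library labelled shDEK17 3 was instead lowest for CCNA2, CDK1, TTK, NDC80, PRC1, ANLN and TOP2A and highest for FOXM1, NEK2, BIRC5 and CENPE. HMMR, a spindle assembly factor, showed the contrast, with 10.46 in shDEK14 3 and 9.52 in shDEK17 3, and ANLN read 9.25 and 8.15 there. These gaps within the libraries labelled with an shRNA exceeded the differences between the labels for both genes. DEK intensity was 2826 and 532.0 in these libraries, and its part was not tested.

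As a description of how far the members moved together, the median correlation over 780 pairs of members was 0.18 across the 9 libraries, against 0.0018 over all pairs of tested genes. It was 0.062 over the 8 libraries without shEMPTY 2. The points share arrays and their normalization. Members had a median range of 0.71 over the 9 libraries, against 0.79 over all genes.

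The library labelled shEMPTY 2, in which interferon-induced genes stood high, was then set against the mean of shEMPTY 1 and 3. This is a single library chosen from earlier results, so the values are described without a test. Of 40 members, 31 were lower there (51.9% of all genes were), with a median difference of -0.25 against -0.015 over all genes. It lay below both other shEMPTY libraries for 23 members (35.5% of all genes) and above both for 2 (31%). At least 1.2-fold below the mean of both were 20 members (21.9% of all genes), and none was as far above (19.1%). The 15 members with their lowest value of all 9 libraries there came from every role but the chromosome pair, and CKS2 alone had its highest there.

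INCENP, the scaffold of the passenger complex, had the largest difference, reading 7.23 in shEMPTY 2 against 8.31 and 7.85 in shEMPTY 1 and 3 (1.81-fold lower than their mean). PLK1 was 1.75-fold lower, though shEMPTY 1 and 3 themselves lay apart (7.94 and 7.23). NUF2 read 7.96 against 8.70 and 8.81 (1.73-fold lower), and CDC25C 6.72 against 7.41 and 7.51 (1.68-fold lower). For NUF2 and CDC25C the control pair lay close together, so the gap to shEMPTY 2 was several times wider than the spread of the pair. BUB1 was 1.49-fold, ANLN 1.41-fold, HMMR 1.40-fold and CDK1 1.39-fold lower. Over the list, the drop was wider than the gap between shEMPTY 1 and 3 for 17 members (24.8% of all genes). Of the 9 members on the other side, the most positive were CKS2 (0.24 on the log2 scale), TPX2 (0.14) and CCNB1 (0.085). TPX2 was the only member above the mean of the pair by more than the gap of the pair.

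**Figure D4:**
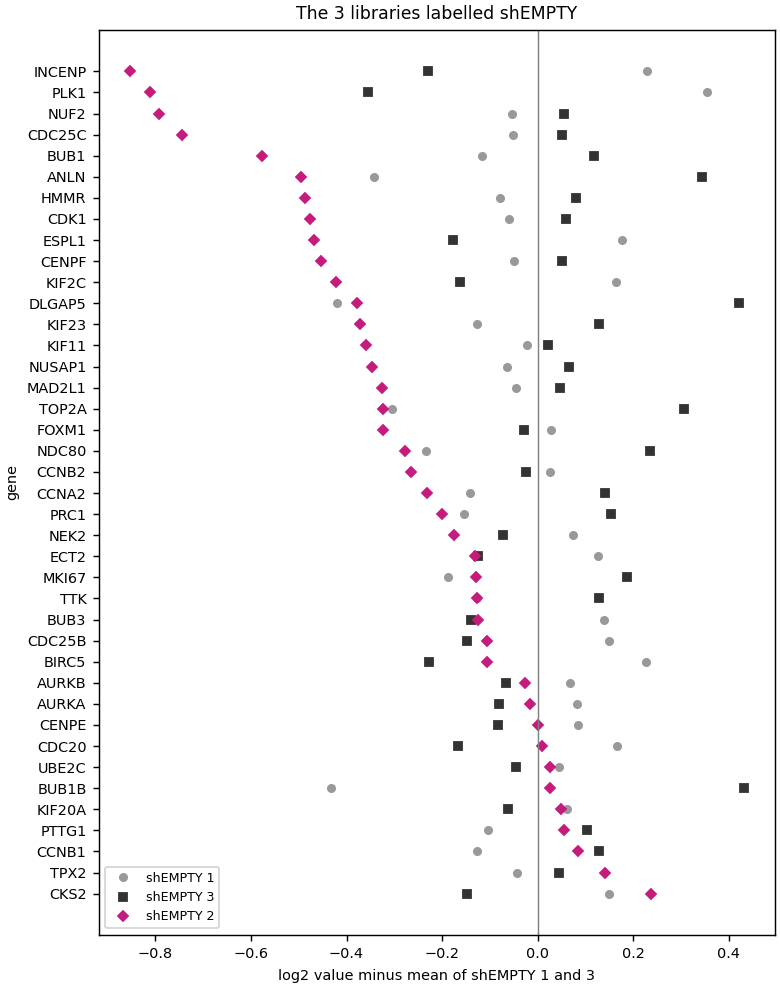
Each of the 40 members (rows, sorted) in the 3 libraries labelled shEMPTY, as the log2 value minus the mean of shEMPTY 1 (circles) and shEMPTY 3 (squares); diamonds are shEMPTY 2. The diamonds lie left of 0 for 31 members, down to -0.85 for INCENP, and reach 0.24 for CKS2 at the bottom.

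Genes of every role were among the lower ones, but not evenly. The median difference was -0.25 for mitotic entry, -0.11 for the kinases, -0.30 for checkpoint and kinetochore genes, -0.36 for kinesins and -0.36 for the spindle and cytokinesis, with 6 of 6 lower in the latter. Anaphase genes were the exception at 0.017, with 3 of 4 at or above the mean of the pair and ESPL1 alone lower (-0.47). Interferon-response genes differed by a median of 3.24 (19 tested of 30) in the same library. In the average contrast, with shEMPTY 2 among the controls, all 19 lay below 0 (median of -1.10). Their median deviation from the 9-library mean was 2.91 in shEMPTY 2, and -0.44 and -0.23 in shEMPTY 1 and 3. It ran from -0.67 to -0.16 in the libraries labelled with an shRNA. DEK was at 293.9 in shEMPTY 2, and the part of DEK or of the interferon response in the lower mitotic signal was not tested.

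Second probes bore on how far single values can be trusted. In 17 genes, 20 further probes were kept, and 3 probes (of INCENP, NUF2 and UBE2C) were detected on no array and left out. In shEMPTY 2, 18 of these 20 probes were lower than the mean of shEMPTY 1 and 3, and 10 were so by at least 1.2-fold, so that 49 of all 60 kept member probes were lower. By chosen probes, 51.9% of all genes were lower there and 21.9% by at least 1.2-fold. The shares over all kept probes were not computed. Further probes read the same genes in the same library and are not further samples. The second probe of NUF2 gave -0.89 beside -0.79, that of HMMR -0.66 beside -0.49 and that of KIF11 -0.61 beside -0.36. CKS2, which was highest in shEMPTY 2 by its chosen probe (0.24), was lower by its other probe (-0.46). CDK1 and KIF23 went the opposite way, with -0.48 for the chosen and 0.075 for the other probe of CDK1, and -0.37 and 0.54 for those of KIF23, whose other probe was detected on 4 arrays. In the average contrast, 15 of the 20 had the sign of the chosen probe and 5 did not, and the share over other genes was not computed.

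Related gene lists gave the surroundings of the members. Condensin and cohesin genes, which shape and hold chromosomes in mitosis, had a median difference of -0.24 in shEMPTY 2, close to the -0.25 of the members, over 15 tested of 16. Further centromere and kinetochore genes had -0.15 (28 of 29 tested), while S phase genes, which copy DNA before G2, had -0.020 (35 of 39). Genes listed for the anaphase-promoting complex had -0.010 (14 of 17). That list held subunits and also FZR1, UBE2S and FBXO5. Regulators of the DREAM and MuvB complexes had -0.033 (17 of 21) and inhibitors of CDKs and other brakes 0.099 (12 of 17).

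**Figure D5:**
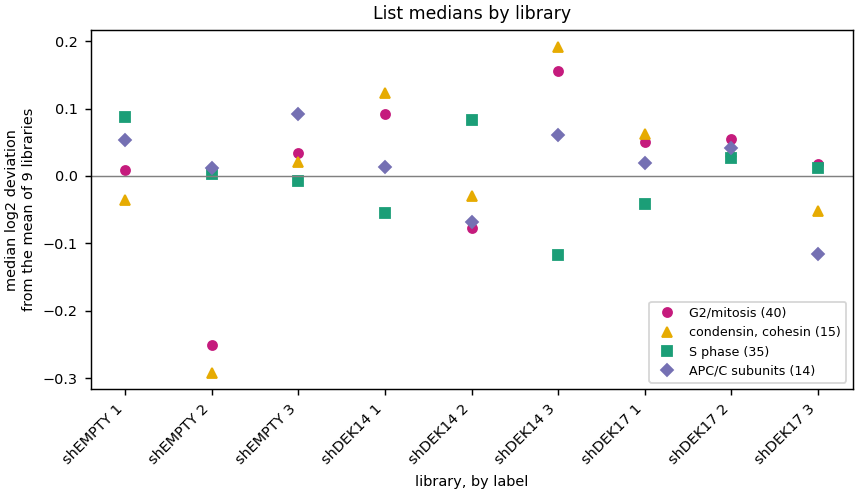
Median deviation from the mean of the 9 libraries (log2, vertical axis) in each library for 4 gene lists. These are the 40 members, 15 condensin and cohesin genes, 35 S phase genes and 14 genes listed for the anaphase-promoting complex (APC/C). The legend names the last list APC/C subunits. In shEMPTY 2 the members (-0.25) and the condensin and cohesin genes (-0.29) lie low. S phase genes (0.0029) and genes listed for the APC/C (0.012) lie near 0 there.

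In the average contrast no gene of these lists passed limma's adjusted threshold. S phase genes had 10 above and 25 below (median of -0.06), opposite in balance to the members, and centromere and kinetochore genes 18 above and 10 below (0.10). Condensin and cohesin genes had 12 above and 3 below (0.13), and DREAM and MuvB regulators 9 and 8 (0.06). CDK inhibitors and brakes had 9 and 3 (0.09) and genes listed for the anaphase-promoting complex 6 and 8 (-0.02). The lowest p in these lists belonged to SKA1, a kinetochore protein that follows shortening microtubules, which was higher in all 6 libraries labelled with an shRNA (0.50 ± 0.15, limma adjusted p of 0.937). CENPN, which recognizes centromeric nucleosomes, had 0.38 ± 0.15, NCAPD2, a condensin subunit, 0.43 ± 0.21 and CDKN2D, an inhibitor of CDK4 and CDK6, 0.91 ± 0.29. E2F5, a repressor E2F of the DREAM complex, had -0.42 ± 0.17, LIN54, the MuvB subunit that reads the CHR, 0.36 ± 0.16 and STAG2, a cohesin subunit, -0.29 ± 0.16. The clamp loader subunit RFC2 and the helicase subunit GINS2 of the S phase list had -0.30 ± 0.15 and -0.27 ± 0.15. ANAPC1 and CDC16, subunits of the anaphase-promoting complex, had -0.23 ± 0.17 and 0.20 ± 0.17, and GADD45A, a stress-induced brake on G2, -0.28 ± 0.21. Limma's adjusted p was at least 0.937 for each of them. Like SKA1, CENPN was higher in every library labelled with an shRNA than in every one labelled shEMPTY (1.5% of all genes). E2F5 and RFC2 were separated the other way (1.59%).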

How the data were processed

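Total RNA of 9 U937 libraries was hybridised to Illumina HumanHT-12 v4 bead arrays. The authors deposited a linear bead intensity per probe, neither normalized nor background-corrected, with a detection p-value per array that the authors took against negative control beads. A further deposited table held the same intensity values times a factor per array, and the sources used here give neither the origin of the factor nor the scanner software. Probe names came from the platform annotation: 30113 of 47323 probes had 1 symbol, 8 several and 17202 none, and 30074 were matched to RefSeq.

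Intensities were background-corrected and quantile-normalized with neqc in limma 3.58.1 (R 4.3.3), with an offset of 16. The filter kept probes with detection p under 0.01 on 3 or more arrays (14230, of which 11198 had a name), and the probe of highest mean stood for a gene. A mean per group was fitted by limma over the 9 arrays together, with Benjamini-Hochberg adjustment across 8611 genes and a threshold of 0.05. The methods' t-test was run per hairpin on the same values, and Fisher's method, chosen here, joined the p-values of both hairpins. That method assumes independent tests, while both hairpins were tested against the same shEMPTY libraries, and it ignores the sign of the difference. The fit was run on simulated data with independent noise and planted differences larger than those of the members. That run does not show what the fit finds at the size seen here or with contradicted labels. The number of arrays limits the precision.

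Members, gene lists and roles were chosen with earlier results of these data known. Fold changes with errors are given for the 8 members of lowest p in the average contrast and the 3 of lowest p in each other contrast. For shEMPTY 2, the 8 most negative and 3 most positive differences are named, and in each related list the 2 genes of lowest p. Promoter stretches are those of the first 5 named members, by p, with a CHR before the start. Alternatives covered background correction, normalization, probe filter, probe choice, replicate block, array weights, variance model, samples in the fit, the t-test and libraries left out. The number of array columns not used was 0.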

Additional observations from a re-analysis of the deposited data

How the results depend on the processing

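With 3 libraries a group and labels that DEK contradicts, differences of the size seen here could not be separated from the spread between libraries, and probes of 1 gene disagreed in places. No member passed limma's adjusted threshold under any setting tried. Leaving out each library in turn gave 0 calls in all 4 contrasts. The member median then ran from 0.035 to 0.205 for the average, from 0.079 to 0.205 for shDEK14, from 0.014 to 0.209 for shDEK17 and from -0.023 to 0.079 between hairpins. For the average, the lowest value of 0.035 was that without shEMPTY replicate 2. Between hairpins, the median reversed to -0.023 without shDEK14 replicate 3 and to -0.040 without all libraries of experiment 3. BUB1B reversed in the average contrast from 0.19 to -0.028 without shEMPTY replicate 1 and to -0.11 without all libraries of experiment 1, and its leave-one-out values ran from -0.028 to 0.40. Without all libraries of experiment 2, limma called 1 gene for the average, 4 for shDEK14, 1 for shDEK17 and 10 between hairpins, 0 of them members in each. MKI67 and ESPL1 moved by over 1.5 times in the average contrast, to 0.22 for both with no background correction and to 0.19 and 0.18 with the authors' values, where ANLN and BUB1B had 0.16 and 0.12. BUB3 was at -0.07 with the mean of its kept probes. The cause was not tested.

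Under other background corrections, normalizations, filters and probe choices, the member median of the average contrast stayed above 0 (0.092 with the authors' values), shEMPTY 2 held the lowest value for 12 to 18 members and its median difference from shEMPTY 1 and 3 ran from -0.21 to -0.29. Against shEMPTY 3 alone it was -0.31, and against shEMPTY 1 alone -0.25. With the experiment number as a replicate block, 0 genes were called in each contrast and the member median of the average was 0.158 again. Whether the numbers pair the samples could not be settled, since deviations were taken from the means of groups whose labels DEK contradicts. Of 9 same-numbered pairs of libraries, 1 had deviations correlated above 0.1 (range -0.43 to 0.27), and 2 of 9 libraries correlated best with their own number. Within experiments 1, 2 and 3 the member median of the average difference was 0.11, 0.22 and 0.049, that of shDEK14 0.15, 0.18 and 0.12 and that of shDEK17 0.086, 0.30 and -0.032. The fit on only the groups compared was not run for the average, which uses all groups. Medians of the single hairpins under these settings, the differences of shEMPTY 2 from a single library, the separation without it and the role medians without a library were chosen after seeing the data.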
